A study of Homo sapiens with 15 samples.

Results

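The 98 genes described here are long noncoding RNA genes of human MV4-11 cells, an established acute myeloid leukemia line. They were chosen from the 936 genes of the array annotation whose symbol ends in -AS with a number (named antisense to another gene) or begins with LINC and a number (intergenic), out of 14812 genes in all. A gene was kept where the mean of its log2 array signal over all 15 arrays was at least 5, which left 59 antisense and 39 LINC genes. All 98 are typed as long noncoding RNA in RefSeq. The level that chose them was measured on these same arrays, so it is a description and is not tested. RNF213-AS1, INKA2-AS1 and LINC00701 lay just inside the threshold at 5.02, 5.02 and 5.00, and NFYC-AS1, DDX11-AS1 and LINC01023 just outside at 4.99, 4.99 and 4.98. The group mean was at or above 5 in every group for 81 of the 98, and below 5 in at least 1 group for 17. Because the threshold averages all 15 arrays, a gene low in DMSO could enter only through the groups where it was high: ATP2B1-AS1, CCDC18-AS1, LINC00910 and RHPN1-AS1 had DMSO means of 4.61, 4.87, 4.89 and 4.96, and their rises are tied to how they were chosen.

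Long noncoding RNAs are transcripts with no long open reading frame. Many are made by RNA polymerase II from promoters shared with, or close to, a protein-coding gene, and some antisense RNAs act on the gene opposite them while others have no known role. BET proteins bind acetylated lysines on histones through paired bromodomains and help polymerase II to leave promoters and enhancers, and BET inhibitors block that binding.

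The line is known for a fusion of KMT2A with AFF1 and for an internal duplication in FLT3. They were treated for 24 h with OTX015 at 300 nM (birabresib, which binds both bromodomains of BET proteins), with DW71177 at 300 nM, with RVX208 at 5 uM (apabetalone, which prefers the second bromodomain), with DW71374 at 300 nM, or with the vehicle DMSO. Each of the 5 groups had 3 arrays, from wells of a single cell line treated in triplicate. The labels do not say whether the wells were separate cultures, so the p-values reflect array-to-array spread alone, and that spread may be technical. DW71177 and DW71374 are known here only by code name.

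The median log2 signal of an array was 3.72 to 3.79, and arrays of a group correlated at 0.989 to 0.993 across features. Of 7 measured myeloid and leukemia markers 5 lay at 5 or above, among them LYZ, FLT3 and SPI1, while MPO and CD14 lay at 4.33 and 3.10. Both measured T and NK cell markers, CD8A and NKG7, lay at 5.19 and 6.91 and the measured megakaryocyte marker PF4 at 5.72, while both measured epithelial markers, EPCAM and KRT19, lay under 5 and no B cell marker on the list was measured. In RNA from whole wells, fewer cells of a type and less RNA per cell cannot be told apart. A signal depends on the probes of its feature as well as on the RNA, so the levels of different genes are not ranked against each other. The array gives no background level, so where the lower of a pair of group means is under 5, the fold is at best a lower bound.

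A pair of arrays stood apart for some of these genes. LINC01347, LINC01000, LINC01061, LINC00999 and ZEB2-AS1 were each lowest in the second of the OTX015 arrays and highest in the second of the DW71177 arrays. Of the 98 genes, 25 (25.5%) showed that same arrangement, against 12.8% of all genes. The fit was therefore repeated with both arrays left out, an alternative chosen after the values were seen, and its values are given for the genes above and wherever a named call was lost.

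The promoters of 4 genes are shown because these genes had the largest called rise and fall with OTX015 among the LINC and the antisense genes with a promoter in the table used. Each run holds 250 bases before to 50 bases after the annotated start, taken from RefSeq on GRCh38.p14 and read 5′ to 3′ on the gene's own strand. Capitals mark the motifs found, each searched as the letters given and as their reverse complement. The E-box was searched as CACGTG, the AP-1 motif as TGACTCA, the core of the ETS motif as CGGAAG, the box bound by NF-Y as CCAAT, and the GC box of the SP factors as GGGCGG, and no marked motif overlaps another.
LINC00938, higher, chr12:45727872-45728171, minus strand: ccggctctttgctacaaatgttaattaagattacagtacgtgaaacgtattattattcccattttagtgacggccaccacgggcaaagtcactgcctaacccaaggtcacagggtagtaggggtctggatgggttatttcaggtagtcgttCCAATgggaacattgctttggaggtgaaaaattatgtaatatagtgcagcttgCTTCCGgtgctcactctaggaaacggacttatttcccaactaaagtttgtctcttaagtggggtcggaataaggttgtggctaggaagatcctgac
ATP2B1-AS1, higher, chr12:89708705-89709004, plus strand: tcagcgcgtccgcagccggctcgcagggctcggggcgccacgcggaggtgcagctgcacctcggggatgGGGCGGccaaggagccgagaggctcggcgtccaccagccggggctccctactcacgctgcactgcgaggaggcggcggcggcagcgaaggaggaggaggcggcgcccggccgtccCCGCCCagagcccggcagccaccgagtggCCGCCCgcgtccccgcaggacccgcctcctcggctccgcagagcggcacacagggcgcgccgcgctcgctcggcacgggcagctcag
LINC00996, lower, chr7:150433404-150433703, plus strand: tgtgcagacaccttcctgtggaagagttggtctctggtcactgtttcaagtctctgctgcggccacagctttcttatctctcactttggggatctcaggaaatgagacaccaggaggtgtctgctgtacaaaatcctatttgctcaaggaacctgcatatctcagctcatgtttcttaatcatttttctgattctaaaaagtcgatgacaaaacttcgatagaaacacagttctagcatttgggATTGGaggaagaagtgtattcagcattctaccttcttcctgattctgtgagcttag
VPS9D1-AS1, lower, chr16:89711606-89711905, plus strand: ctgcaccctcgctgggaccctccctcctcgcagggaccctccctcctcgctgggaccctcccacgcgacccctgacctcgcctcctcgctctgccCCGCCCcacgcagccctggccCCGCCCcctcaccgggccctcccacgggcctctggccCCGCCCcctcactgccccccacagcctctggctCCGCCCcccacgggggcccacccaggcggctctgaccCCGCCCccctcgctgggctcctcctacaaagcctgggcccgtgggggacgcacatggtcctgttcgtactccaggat

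In each direction of response, the window of the antisense gene was richer in G and C than that of the LINC gene, with a single gene of each kind. ATP2B1-AS1 lay under 5 in DMSO, so the rise by which its promoter was picked is tied to how the gene was chosen. The promoters of ATP2B1-AS1 and VPS9D1-AS1 were 78.3% and 75.7% G or C and held 3 and 5 GC boxes. Those of LINC00938 and LINC00996 were 44.3% and 43% G or C and held 0 GC boxes. The E-box, the site that MYC and its partner MAX bind, was in 0 of these 4 windows. Of the 98 genes, 84 had a promoter in the table, with a median of 60.7% G or C against 58.7% over all 35116 promoters. An E-box stood in 10.7% of the 84 and in 7.26% of all promoters, an AP-1 motif in 7.14% and 4.95%, an ETS core in 28.6% and 19.5%, an NF-Y box in 36.9% and 34.6%, and a GC box in 50% and 45%. These matches describe the letters only.

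The comparison of OTX015 with DMSO asked which of these RNAs a pan-BET inhibitor changed. OTX015 moved them both ways, with 22 higher, 16 lower and 60 not called. LINC00996 fell most, to 3.79-fold lower, followed by VPS9D1-AS1 and LINC00926 at 2.27- and 2.15-fold lower. LINC00938 rose most, at 2.03-fold, and was the only one of the 98 to rise at least 2-fold with OTX015. Calls are limma p-values adjusted by the Benjamini-Hochberg method over all 14812 genes, under 0.05. Groups that do not overlap are common: OTX015 and DMSO arrays did not for 50% of the 98 genes and 36.2% of all genes. With DW71177 this held for 42.9% and 32.6%, and with RVX208 for 35.7% and 26%.

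LINC00996, an intergenic RNA whose nearest protein-coding gene in RefSeq is GIMAP8, read 5.62, 5.31 and 5.55 with OTX015, against 7.39, 7.43 and 7.42 in DMSO. No OTX015 array came near a DMSO array, and the difference was -1.92 ± 0.098 (log2, standard error, n = 3 and 3, limma adjusted p = 1e-08). VPS9D1-AS1, an antisense RNA also known as MYU and described as induced by MYC in colon cancer cells, read 5.40, 5.22 and 5.39 with OTX015, against 6.55, 6.47 and 6.53 in DMSO. Its difference was -1.18 ± 0.067 (limma adjusted p = 2.9e-08), again with groups far apart. LINC00926, whose nearest protein-coding gene is TCF12, read 5.17, 4.84 and 5.28 with OTX015, against 6.33, 5.90 and 6.38 in DMSO (-1.11 ± 0.136, limma adjusted p = 2.9e-05). The spread within both groups was wider here, but they did not overlap.

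LINC00977, nearest to GSDMC, read 5.00, 4.83 and 5.16 with OTX015, against 6.06, 5.71 and 5.71 in DMSO. LINC00294 read 4.95, 4.90 and 4.96 with OTX015, against 5.59, 5.72 and 5.75 in DMSO. Their falls of 1.78- and 1.68-fold ended under the level of 5, so both folds are lower bounds at best. TSPOAP1-AS1, TMPO-AS1 and LINC01963 fell 1.60-, 1.57- and 1.48-fold. EPB41L4A-AS1, the host of a small nucleolar RNA, fell by 0.49 on the log2 scale (limma adjusted p = 0.0017).

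LINC00938 read 7.14, 7.19 and 7.31 with OTX015, against 6.18, 6.23 and 6.15 in DMSO. The groups were separated by far more than their spread (1.02 ± 0.075, limma adjusted p = 2.7e-07). ATP2B1-AS1, named after a plasma membrane calcium pump gene, read 5.36, 5.89 and 5.46 with OTX015, against 4.79, 4.40 and 4.64 in DMSO. Its rise of 1.95-fold started under 5 and is a lower bound at best. CCDC18-AS1, which also lay under 5 in DMSO, LINC01569, SH3BP5-AS1, ASB16-AS1 and LINC00674 rose 1.53- to 1.75-fold. LINC00467, which is described as repressed by MYCN in neuroblastoma cells, read 5.81, 5.86 and 5.75 with OTX015, against 5.20, 5.50 and 5.28 in DMSO (0.48, limma adjusted p = 0.00016), without overlap.

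ZEB2-AS1, an antisense RNA reported to favour translation of the transcription factor ZEB2 by keeping an intron in its 5′ leader, read 8.89, 8.48 and 8.90 with OTX015, against 8.14, 7.91 and 7.77 in DMSO (0.82 ± 0.145, limma adjusted p = 0.00067). Without the second OTX015 and DW71177 arrays the difference was 0.96. A dimmer ZEB2-AS1 feature, at 5.26, differed by only 0.08 and was not called, so the features of this gene disagree.

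The other genes of highest signal went 2 ways with OTX015. LINC00987, at a mean of 11.25, read 11.15, 11.28 and 11.17 with OTX015, against 11.28, 11.18 and 11.29 in DMSO, and was not called (-0.05, limma adjusted p = 0.71). LINC01347, LINC01000, LINC01061 and LINC00999 rose by a similar 0.54, 0.58, 0.59 and 0.53. The other features of LINC01000 and LINC01347 were divided. A feature of LINC01000 at 8.13 and one of LINC01347 at 6.60 rose by 0.59 and 0.41 (limma adjusted p = 0.0015 and 0.019 over all features). The dimmest feature of LINC01000, at 6.15, differed by only 0.02 and that of LINC01347, at 5.86, by 0.29, and neither was called. The feature of highest mean of LINC01347 read 10.06, 9.70 and 10.04 with OTX015, against 9.48, 9.42 and 9.28 in DMSO. Within groups the deviations of these 4 genes from their group mean, over the 15 arrays, correlated at 0.82 to 0.97 with each other and at 0.77 to 0.86 with ZEB2-AS1, where the same arrays are shared. Whether their features share probe sequence was not tested, for want of probe sequences, so the 4 rises may not be separate measurements. Without the second OTX015 and DW71177 arrays the 4 rises were 0.66 to 0.72.

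The share called was 38.8% of the 98 genes with OTX015, against 25.7% of all genes. Upward it was 22.4% against 11.2%, and downward 16.3% against 14.5%, a balance that depends on the threshold. With members chosen by a DMSO mean of at least 5 in its place, 18 of 100 genes were higher and 19 lower. That choice leans the other way, since a gene high in DMSO and low with the compounds can enter through DMSO alone. Neither balance is therefore a test of direction. Genes of low signal are rarely called, so the other classes at the same level are set beside them. Of 78 other long noncoding RNA genes at a mean of at least 5, 38.5% were called, and of 6274 protein-coding genes at that level 49.3%. Of the 838 -AS and LINC genes below the level, 4.77% were called. The median difference was 0.01 over the 98 genes and 0.00 over all genes. By kind, 12 of 59 antisense genes were higher and 9 lower, and 10 of 39 LINC genes were higher and 7 lower.

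**Figure D1:**
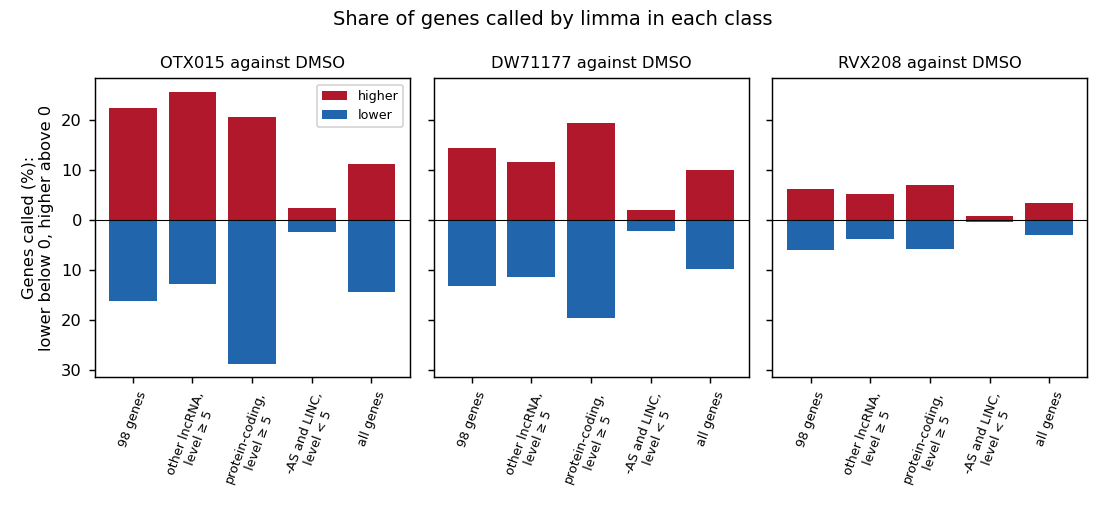
Percent of genes called higher (red, above 0) and lower (blue, below 0) than in DMSO by limma, for OTX015, DW71177 and RVX208, in the 98 genes, other long noncoding RNA genes and protein-coding genes with a mean log2 signal of at least 5, -AS and LINC genes below 5, and all genes. With OTX015 the 98 genes had 22.4% higher and 16.3% lower, and -AS and LINC genes below the level had few calls with any compound.

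**Figure D2:**
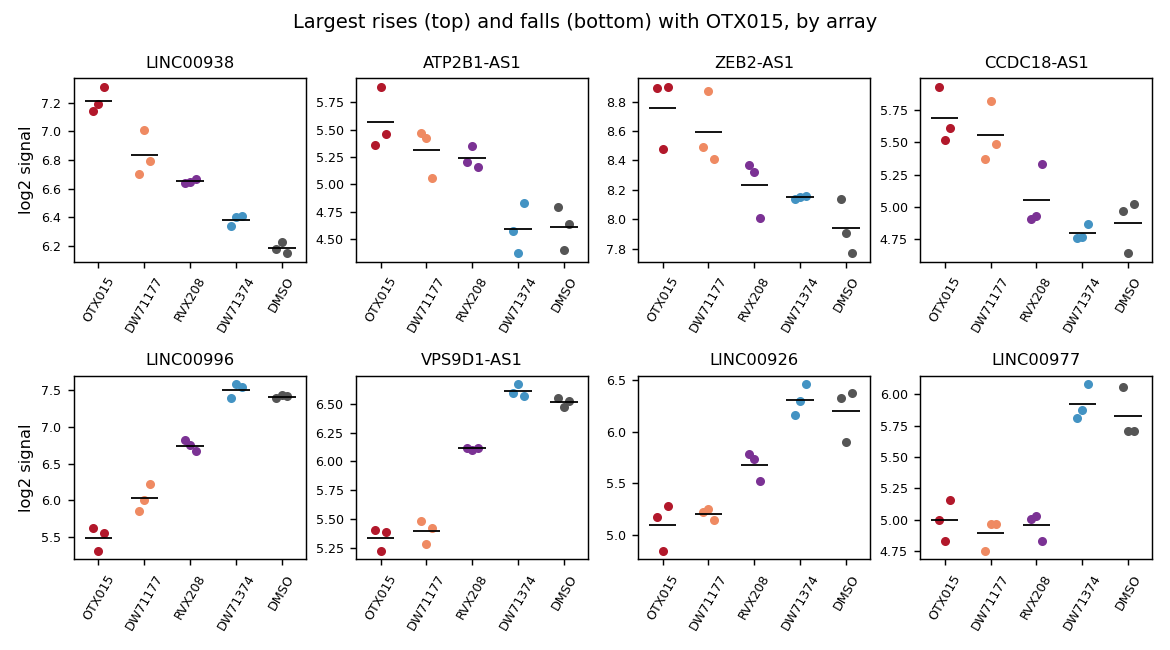
Log2 signal in each array (dots, 3 per group, black line the group mean) of the 4 genes with the largest rises (top) and the 4 with the largest falls (bottom) with OTX015, with groups in the order OTX015, DW71177, RVX208, DW71374 and DMSO and an axis of its own for each gene that does not start at 0. LINC00996 lay between 5.31 and 5.62 with OTX015 and between 7.39 and 7.43 in DMSO, and the DW71374 arrays lay near DMSO in these 8 genes. ATP2B1-AS1 and CCDC18-AS1 had DMSO means under 5, so their rises are tied to how they were chosen.

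DW71177 at 300 nM was set against the same DMSO arrays. It changed 27 of the 98 genes, 14 higher and 13 lower, or 27.6% against 19.8% of all genes. With members chosen by the DMSO mean the balance turned, to 10 higher and 15 lower, but that choice favours genes that fall from DMSO. LINC00996, VPS9D1-AS1, LINC00926 and LINC00977 fell most, by 1.90- to 2.61-fold. SH3BP5-AS1 and LINC01569 rose by 1.70- and 1.67-fold, and ATP2B1-AS1, whose DMSO mean is under 5, by 1.64-fold.

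LINC00996 read 5.85, 6.01 and 6.23 with DW71177, against 7.39, 7.43 and 7.42 in DMSO (-1.38 ± 0.098, n = 3 and 3, limma adjusted p = 5e-07). VPS9D1-AS1 read 5.48, 5.28 and 5.42 with DW71177, against 6.55, 6.47 and 6.53 in DMSO (-1.13 ± 0.067, limma adjusted p = 9.7e-08). In both genes every DW71177 array lay below every DMSO array. LINC00977 read 4.75, 4.97 and 4.97 with DW71177, against 6.06, 5.71 and 5.71 in DMSO, a fall of 0.93 that ended under 5. TSPOAP1-AS1, LINC00294 and LINC01963 fell by 0.69, 0.56 and 0.41, and EPB41L4A-AS1 fell by 0.41.

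SH3BP5-AS1 read 5.61, 6.02 and 5.93 with DW71177, against 4.95, 5.01 and 5.30 in DMSO (0.77 ± 0.156, limma adjusted p = 0.0027). LINC00938 read 6.70, 7.01 and 6.79 with DW71177, against 6.18, 6.23 and 6.15 in DMSO (0.65 ± 0.075, limma adjusted p = 2.9e-05). Neither gene had overlapping groups. CCDC18-AS1 and ZEB2-AS1 rose by 0.69 and 0.65, or by 0.56 and 0.51 without the second OTX015 and DW71177 arrays. RHPN1-AS1 and PSMA3-AS1, the antisense RNA of a proteasome subunit gene, both rose by 0.49. CCDC18-AS1 and RHPN1-AS1 lay under 5 in DMSO, so their rises are tied to how they were chosen.

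LINC01347, LINC01061 and LINC00999 did not pass the test with DW71177, at 0.31, 0.31 and 0.29 (limma adjusted p = 0.051, 0.068 and 0.062), and LINC01000 passed at 0.34 (limma adjusted p = 0.049). Without the second OTX015 and DW71177 arrays the 4 differences were 0.20 to 0.21 and none was called, that of LINC01000 included. Upward calls made up 14.3% of the 98 genes against 9.95% of all genes, and downward calls 13.3% against 9.88%. Protein-coding genes at a mean of at least 5 were called in 39% of cases and other long noncoding RNA genes at that level in 23.1%. The median difference was 0.01 over the 98 genes and -0.01 over all genes.

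Both at 300 nM, DW71177 and OTX015 could be set against each other in the same fit. LINC00996 was 1.45-fold higher with DW71177 than with OTX015 and LINC00938 1.30-fold lower, and the other 96 genes passed no test. That is 2.04% of the 98 genes against 1.26% of all genes (upward 1.02% against 1.07%, downward 1.02% against 0.182%). An unadjusted limma p under 0.05 was found for 16 of the 98 and for 2032 of all 14812 genes, which are similar shares. LINC00996 read 5.85, 6.01 and 6.23 with DW71177, against 5.62, 5.31 and 5.55 with OTX015 (0.54, 95% interval 0.33 to 0.75, n = 3 and 3, limma adjusted p = 0.019). LINC00938 read 6.70, 7.01 and 6.79 with DW71177, against 7.14, 7.19 and 7.31 with OTX015 (-0.38, interval -0.54 to -0.22, limma adjusted p = 0.028). Neither pair of groups overlapped, as was so for 13.3% of the 98 genes and 15.5% of all genes. However, with any single array of these groups left out only 0 or 1 of these 2 calls held. The limma adjusted p-values then reached up to 0.069 for LINC00996 and 0.098 for LINC00938.

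Leaving out the second array of both groups called 5 genes, all lower with DW71177 than with OTX015. They were LINC01347, LINC01000, LINC01061 and LINC00999, at -0.52 to -0.44, and LINC00938 at -0.48 (limma adjusted p = 0.035 to 0.04), while LINC00996, at 0.46, was no longer called (limma adjusted p = 0.09). VPS9D1-AS1 differed between the compounds by 0.06 with all arrays (interval -0.09 to 0.20), LINC00977 by -0.10 (-0.34 to 0.15) and LINC00926 by 0.11 (-0.19 to 0.40). With all arrays, the 95% intervals allow at most a 1.5-fold difference in signal between the compounds for 96 of the 98 genes. That is 98%, against 93.4% of all genes. They allow at most a 2-fold difference in signal for all 98. For genes with a group mean under 5 the limit is one on the signal alone, since such folds are at best lower bounds.

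RVX208 was used at 5 uM, a higher dose than the other compounds, so its values stand beside theirs without a test between compounds. Against DMSO it changed 12 of the 98 genes, 6 higher and 6 lower, or 12.2% against 6.52% of all genes. LINC00977 fell most, by 1.83-fold, followed by LINC00996 at 1.59-fold. The RVX208 mean of LINC00977 was 4.96, under 5, so its fold is a lower bound at best. ATP2B1-AS1 rose by 1.55-fold, but its DMSO mean of 4.61 is under the threshold, which it reached only through OTX015, DW71177 and RVX208 arrays. With members chosen by the DMSO mean, which favours genes that fall from DMSO, 5 genes were higher and 7 lower. With any single RVX208 or DMSO array left out, 2 or 3 genes were higher and 5 or 6 lower.

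LINC00977 read 5.01, 5.03 and 4.83 with RVX208, against 6.06, 5.71 and 5.71 in DMSO (-0.87 ± 0.115, n = 3 and 3, limma adjusted p = 0.00054). The RVX208 arrays of this gene lay in the range of the OTX015 arrays (4.83 to 5.16), and both of these group means were under 5. LINC00996 read 6.82, 6.75 and 6.67 with RVX208, against 7.39, 7.43 and 7.42 in DMSO (-0.67 ± 0.098, limma adjusted p = 0.001). For this gene every RVX208 array lay above every OTX015 and DW71177 array. VPS9D1-AS1, TSPOAP1-AS1 and JMJD1C-AS1 fell by 0.40, 0.47 and 0.46, and LINC00926 fell by 0.53 (limma adjusted p = 0.035). JMJD1C-AS1 also differed from DMSO by -0.34 with DW71374, without a call (limma adjusted p = 0.6).

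LINC00467 read 5.75, 5.81 and 5.84 with RVX208, against 5.20, 5.50 and 5.28 in DMSO (0.47 ± 0.071, limma adjusted p = 0.0013), a difference close to the 0.48 with OTX015 and the 0.44 with DW71177. LINC00938 read 6.64, 6.65 and 6.67 with RVX208, against 6.18, 6.23 and 6.15 in DMSO (0.47 ± 0.075, limma adjusted p = 0.0018). Both genes were higher in every RVX208 array than in any DMSO array. PTPRN2-AS1 read 6.81, 6.75 and 6.95 with RVX208, against 6.47, 6.49 and 6.55 in DMSO (0.33, limma adjusted p = 0.022). It was the only one of the 98 called in opposite directions by 2 compounds, since with OTX015 it read 6.16, 6.05 and 6.31 (-0.33, limma adjusted p = 0.0059). With DW71177 it differed from DMSO by -0.12 and was not called.

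LINC00920 and ASB16-AS1 both rose by 0.27 with RVX208 (limma adjusted p = 0.043 and 0.038). These 2 calls, and those of ATP2B1-AS1, PTPRN2-AS1 and LINC00926, were lost in most of the fits that left out a single RVX208 or DMSO array, at limma adjusted p-values up to 0.16, while the calls of LINC00977, LINC00996, LINC00938, LINC00467, VPS9D1-AS1, TSPOAP1-AS1 and JMJD1C-AS1 held in each of them. Upward calls made up 6.12% of the 98 genes against 3.41% of all genes, and downward calls 6.12% against 3.11%. Protein-coding genes at a mean of at least 5 were called in 13% of cases and other long noncoding RNA genes at that level in 8.97%. The median difference was 0.00 over the 98 genes and -0.01 over all genes.

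DW71374, at the 300 nM of OTX015 and DW71177, changed 0 of the 98 genes against DMSO in limma, with 0% of all genes called. Of the 98, 3 had an unadjusted p under 0.05, and of all 14812 genes 686 did. The differences ran from -0.34 to 0.31. The 95% intervals allow at most a 1.5-fold change in signal for 97 of the 98 genes, or 99%, against 94.7% of all genes. LINC00996 read 7.40, 7.58 and 7.54 with DW71374, against 7.39, 7.43 and 7.42 in DMSO (0.09, limma adjusted p = 0.99). VPS9D1-AS1 read 6.60, 6.67 and 6.57 with DW71374, against 6.55, 6.47 and 6.53 in DMSO (0.10, limma adjusted p = 0.99).

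The lowest difference with DW71374 was that of JMJD1C-AS1. It read 6.62, 6.46 and 6.51 with DW71374, against 6.74, 6.94 and 6.94 in DMSO (-0.34, limma adjusted p = 0.6). These groups did not overlap, as was so for 9.18% of the 98 genes and 10.7% of all genes in this comparison. The differences of JMJD1C-AS1 from DMSO with OTX015, DW71177 and RVX208 were of similar size, at -0.39, -0.37 and -0.46. Between DW71177 and DW71374 this gene differed by -0.03 (limma adjusted p = 0.86). LINC00467 read 5.11, 5.15 and 5.10 with DW71374, against 5.20, 5.50 and 5.28 in DMSO (-0.21, limma adjusted p = 0.97), on the other side of DMSO from its values with the other compounds.

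DW71177 was also set against DW71374 at their shared 300 nM. It changed 27 of the 98 genes, 15 higher and 12 lower, or 27.6% against 19.5% of all genes (9.98% higher and 9.51% lower). With members chosen by the DMSO mean, which favours genes high in DMSO, 11 were higher and 14 lower. LINC00996 was 2.78-fold lower with DW71177 than with DW71374 (-1.48 ± 0.098, n = 3 and 3, limma adjusted p = 2.9e-07), and VPS9D1-AS1, LINC00926 and LINC00977 were 2.33-, 2.15- and 2.03-fold lower. LINC01569 was 1.70-fold higher, CCDC18-AS1 1.69-fold, ATP2B1-AS1 1.66-fold and RHPN1-AS1 1.57-fold. CCDC18-AS1, ATP2B1-AS1 and RHPN1-AS1 had DW71374 means of 4.80, 4.59 and 4.80 and lay under 5 in DMSO too. Their rises are tied to how they were chosen, and their folds are lower bounds at best. The fold of LINC00977, with a DW71177 mean of 4.90, is likewise a lower bound at best. DW71374 had 0 calls against DMSO in the same genes, and the 2 comparisons of DW71177 share its arrays.

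**Figure D3:**
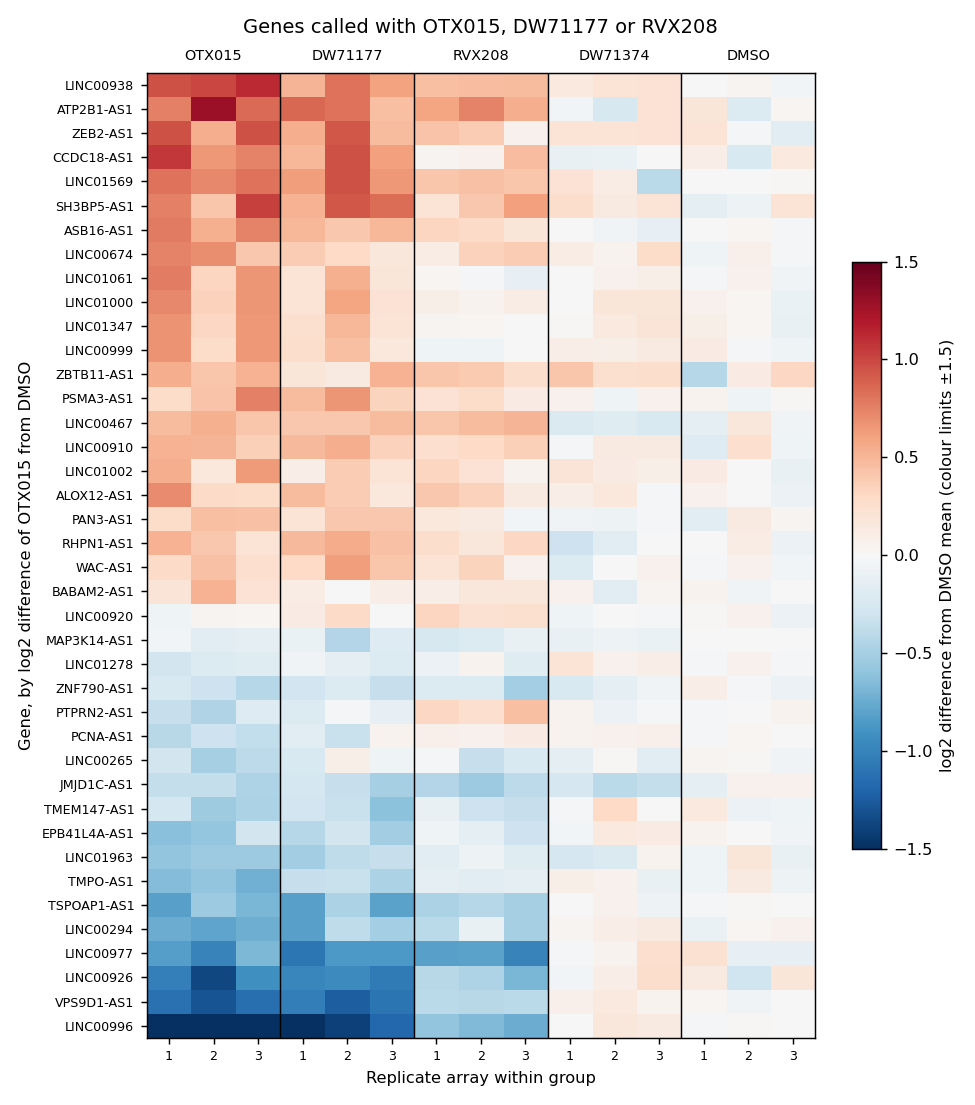
Log2 difference of each array from the DMSO mean (colour, red higher and blue lower, limits ±1.5) for the 40 genes called with OTX015, DW71177 or RVX208, ordered by the difference with OTX015, with the 3 arrays of each group side by side. LINC00938 is at the top and LINC00996, whose OTX015 arrays pass the colour limit, at the bottom, and the DW71374 columns, with 0 calls, are pale.

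Antisense genes were then set beside the gene after which each is named. Of the 59, 41 had that partner gene measured, and 36 of these pairs overlap in RefSeq. With OTX015, 17 antisense genes and 17 partner genes of these 41 pairs were called, the partners 6 higher and 11 lower. That is 41.5% of each, against 25.7% of all genes and 49.3% of protein-coding genes at a mean of at least 5. In 6 pairs both were called, 4 in the same and 2 in opposite directions, in 11 pairs the antisense gene alone, in 11 the partner alone and in 13 neither. With DW71177 both were called in 3 pairs, 2 of them in the same direction, and with RVX208 in 1 pair. Sense cDNA was labelled, per the labels' protocols, but the positions and strands of the probes were not given. Signal from overlapping partners therefore cannot be told apart with certainty.

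TMPO-AS1 starts 653 bases from the start of TMPO on the opposite strand, and these genes overlap in RefSeq. TMPO encodes a lamina-associated protein of the nuclear envelope. TMPO-AS1 read 6.95, 7.01 and 6.88 with OTX015, against 7.53, 7.74 and 7.52 in DMSO, and TMPO read 7.80, 7.74 and 7.82 with OTX015, against 8.38, 8.44 and 8.46 in DMSO. The falls were 0.65 and 0.64 on the log2 scale (limma adjusted p = 1.7e-05 and 2.3e-05). PCNA-AS1 fell by 0.36 with OTX015 and PCNA, the sliding clamp of DNA replication, fell by 0.33. TMEM147-AS1 fell by 0.42 and TMEM147, a membrane protein of the endoplasmic reticulum, fell by 0.62. SH3BP5-AS1 and SH3BP5 rose by 0.73 and 0.49. Without the second OTX015 and DW71177 arrays the TMEM147-AS1 call was lost (-0.36, limma adjusted p = 0.071). Both genes were then called in 7 pairs, 3 in the same direction (TMPO, PCNA and ASMTL) and 4 in opposite directions (ALOX12, JMJD1C, SVIL and CCDC18), so the SH3BP5 and TMEM147 pairs dropped out and the balance of directions turned.

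Opposite calls came from the remaining pairs called together. ALOX12-AS1 read 6.42, 6.00 and 5.98 with OTX015, against 5.78, 5.72 and 5.62 in DMSO (0.43, limma adjusted p = 0.016). ALOX12, the platelet-type 12-lipoxygenase gene, read 5.71, 5.95 and 5.66 with OTX015, against 6.62, 6.76 and 6.80 in DMSO (-0.96, limma adjusted p = 1.3e-06). JMJD1C-AS1 read 6.51, 6.51 and 6.41 with OTX015, against 6.74, 6.94 and 6.94 in DMSO (-0.39, limma adjusted p = 0.0017). JMJD1C-AS1 was also called with DW71177 and RVX208, at -0.37 and -0.46, so the fall was not particular to OTX015. With DW71374 it differed from the same DMSO arrays by -0.34, without a call (limma adjusted p = 0.6). JMJD1C, of the Jumonji family of histone demethylases, read 7.73, 7.80 and 8.0 with OTX015, against 7.35, 7.41 and 7.43 in DMSO (0.45, limma adjusted p = 0.00059). In all 4 genes the groups did not overlap, as was so for 36.2% of all genes with OTX015.

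Several antisense genes moved beside a partner that passed no test. VPS9D1 differed by 0.18 ± 0.108 with OTX015 where VPS9D1-AS1 fell by 1.18. ZEB2 differed by 0.08 ± 0.060 where the brighter ZEB2-AS1 feature rose by 0.82, though the dimmer one differed by 0.08 and was not called. ASB16 differed by 0.00 ± 0.111 where ASB16-AS1 rose by 0.69. The reverse also occurred. URB1 and NIFK, both nucleolar proteins, fell by 0.59 and 0.50 while URB1-AS1 and NIFK-AS1 differed by -0.06 and -0.05, and PCBP3 rose by 0.80 while PCBP3-AS1 differed by 0.09.

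Of the 32 pairs with both starts in the promoter table, 10 had starts on opposite strands within 1000 bases of each other. With OTX015, 6 of these antisense genes and 4 of their partners were called, both in 2 pairs (TMPO and TMEM147), in the same direction, or in 1 pair (TMPO) without the second OTX015 and DW71177 arrays. In the other 22 pairs 6 antisense genes and 8 partners were called, both in 2 pairs, 1 in each direction. The counts are too small for a comparison, and none was made.

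**Figure D4:**
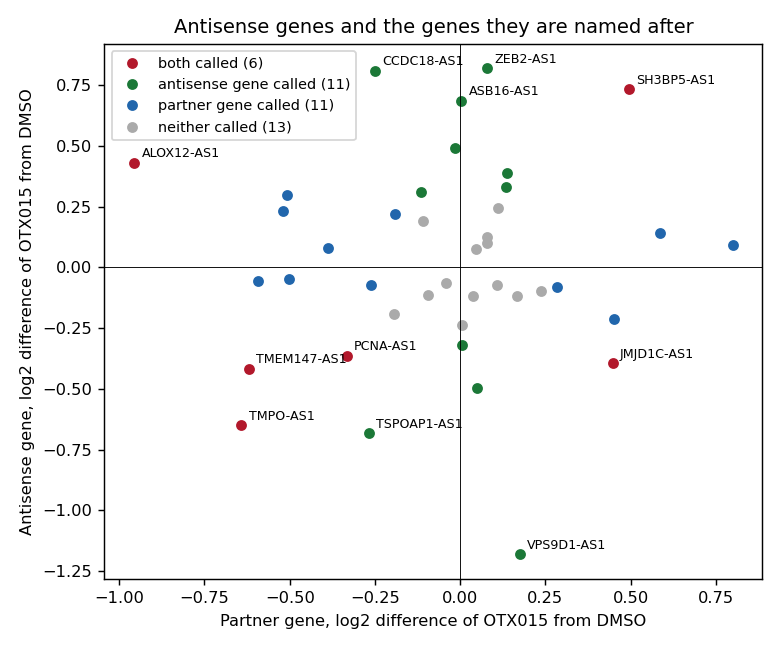
Log2 difference of OTX015 from DMSO of 41 antisense genes (vertical axis) against that of the gene each is named after (horizontal axis), a dot per pair, coloured by which of them limma called. Both were called in 6 pairs, and VPS9D1-AS1 lies at the bottom, with VPS9D1 near 0.

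LINC genes were set beside their nearest protein-coding gene in RefSeq where that gene was measured, which held for 21 of the 39. With OTX015, 9 of these LINC genes and 7 of the neighbours were called, both in 4 pairs, 2 in the same and 2 in opposite directions. That is 42.9% and 33.3%, against 25.7% of all genes and 49.3% of protein-coding genes at a mean of at least 5. LINC01569 read 6.22, 6.12 and 6.22 with OTX015, against 5.39, 5.40 and 5.42 in DMSO (0.79, limma adjusted p = 0.00031). Its neighbour TFAP4, a transcription factor gene known as a MYC target, read 5.33, 5.46 and 4.90 with OTX015, against 6.67, 6.62 and 6.80 in DMSO, a fall of 1.47. The difference of LINC01569 was 0.74 with DW71177 and that of TFAP4 -1.21, and with RVX208 they were 0.43 and -0.62, of which that of LINC01569 was not called (limma adjusted p = 0.064). LINC00999 rose while its neighbour ZNF37A, under 5 in both groups, fell by 0.76. LINC01963 and its neighbour XRCC5, which encodes the Ku80 subunit of DNA end joining, fell by 0.56 and 0.42, and LINC00294 and TCP11L1 fell by 0.75 and 0.33.

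Of 44 other long noncoding RNAs on a list of well-known names, 25 were measured. With OTX015 6 of the 25 were higher and 5 lower, with DW71177 2 and 7, with RVX208 1 and 3, and with DW71374 0. For the first 3 compounds that is 44%, 36% and 16% called, against 25.7%, 19.8% and 6.52% of all genes. Only 14 of the 25 had a mean of at least 5, and 50%, 42.9% and 21.4% of these were called. Of protein-coding genes at that level 49.3%, 39% and 13% were called. SNHG16, a small nucleolar RNA host, fell by 1.16 with OTX015, by 0.96 with DW71177 and by 0.43 with RVX208. MALAT1, a nuclear RNA of speckles, rose by 0.78 with OTX015 and by 0.51 with DW71177.

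GABPB1-AS1 and FGD5-AS1 were among the 58 of the 98 genes called with none of OTX015, DW71177 and RVX208. GABPB1-AS1 differed from DMSO by -0.10, -0.03 and 0.12 in that order, and FGD5-AS1 by -0.06, 0.01 and 0.01. AFF1-AS1, named here after the values were seen because AFF1 is part of this line's fusion gene, read 5.42, 5.27 and 5.37 with OTX015, against 5.18, 4.96 and 5.25 in DMSO (0.23, limma adjusted p = 0.1), without passing the test. The genes not called lay between -0.24 and 0.30 with OTX015, between -0.27 and 0.34 with DW71177 and between -0.34 and 0.43 with RVX208.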

How the data were processed

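Log2 signals for 44629 features were deposited by the authors for 15 arrays, and the scale was inferred from the values. Near-equal medians show normalization between arrays before deposit, so a difference is one relative to the rest of the array. How and with which software that was done, and on which genome build, is not given in the sources used here. Per the labels' protocols, sense cDNA was biotin-labelled and hybridised to an Affymetrix whole-transcript array. The platform annotation named 15835 features with 1 gene and left 28794 unnamed, and the feature of highest mean stood for each of the 14812 genes. A single fit of 5 group means was made over all genes with lmFit and eBayes of limma 3.58.1 (R 4.3.3, 10 residual degrees of freedom) and tested on simulated data. Errors are standard errors of the fit. Arrays give no counting depth, and their number limits the precision.

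The members, lists and tests were chosen with earlier results of these data known. The genes named were, for each compound against DMSO, the 8 largest rises and 8 largest falls among called members with groups that did not overlap (4 for pairs of compounds), the 6 of highest mean, those at the threshold, a list of 12 known names, and partner genes. Others are examples of a count. Comparisons against DMSO share its arrays. Replicate numbers did not pair the arrays: same-numbered arrays of compared groups correlated at -0.09 to 0.10 in their deviations from group means.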

Additional observations from a re-analysis of the deposited data

How the results depend on the processing

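The number of the 98 genes called with OTX015 was 34 to 42 over the fits tried (34 to 37 with single arrays left out), with DW71177 23 to 35 (24 to 27), with RVX208 7 to 19 (8 to 9) and with DW71374 0 in each. For RVX208 it was 19 with genes of a mean of at least 5 alone and 7 over all features, which change how many genes are tested. DW71177 against OTX015 gave 5 genes with the brighter genes alone, 0 over all features, 0 from the 6 arrays of these groups, 5 without the second array of both, and 0 to 1 with single arrays left out, when the call of LINC00996, LINC00938 or both was lost. Against DW71374 it was 20 to 25 with single arrays left out. With a replicate block the counts were 39, 27, 12, 0, 2 and 26 for OTX015, DW71177, RVX208 and DW71374 against DMSO, DW71177 against OTX015 and DW71177 against DW71374, and no count moved by over 1.5 times, though the ATP2B1-AS1 call with RVX208 was lost (adjusted p = 0.053). Fewer members followed from a mean of at least 6, which left 33, of which 18, 11 and 6 were called with OTX015, DW71177 and RVX208 and 9 for DW71177 against DW71374. Of all genes at any level 25.7%, 19.8%, 6.52% and 19.5% were called in that order. The share of all genes at a mean of at least 6 was not counted, so these counts are not read as a result about the members. Choosing members by the DMSO mean gave 100, of which 18 were higher and 19 lower with OTX015 and 10 and 15 with DW71177. That choice favours genes that fall from DMSO, as the mean of all arrays favours some that rise. The largest called differences with groups that did not overlap, by the rule above, numbered 54. Of these, 47 kept their call in every fit tried, and 0 changed direction. Calls named for other reasons are not among the 54, such as LINC01000 with DW71177 and TMEM147-AS1 with OTX015, both lost without the second arrays.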

Other observations

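ST20-AS1 held the same deposited value (5.28) in all 3 DW71177 arrays, the only one of the 98 genes with equal values throughout a group. The 3 features that name PSMB8-AS1 gave the same difference from DMSO (-0.24 with OTX015, not called), so they are not separate measurements. For LINC00999 a second feature, at 5.97, differed by 0.15 with OTX015 against 0.53 for the brighter one used, and for LINC01061 the 7 features differed by 0.54 to 0.90.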
